A study of Mus musculus with 2 samples.

Results

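A divergent promoter is the stretch of DNA between 2 genes that are read away from each other, so that 1 stretch lies upstream of both. The promoter arrays analysed here annotate such stretches with a label of their own and with the joined names of both genes. They held 1500 of these pairs, and 1052 pairs with at least 3 probes were kept as regions, with 15676 probes in all. The other 448 pairs had fewer than 3 probes. The 1052 regions were set beside 13786 promoters annotated to 1 gene only, called single promoters below, which gave 14838 promoter regions in total. The gene named first was always the left one, read towards lower coordinates, and the gene named second the right one, wherever probes inside the genes showed their place (961 regions on both sides).

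Ring1B (gene Rnf2) is the catalytic subunit of Polycomb repressive complex 1 and ubiquitinates histone H2A. In embryonic stem (ES) cells, Polycomb complexes are known to occupy the promoters of silent regulators of development, many of which lie in CpG-rich DNA and are flanked by noncoding transcripts that start nearby in the opposite direction. Divergent promoters are also common among housekeeping genes of DNA repair, RNA processing and mitochondria, where a compact CpG island serves both genes.

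DNA immunoprecipitated with a monoclonal Ring1B antibody (IP, labelled with Cy5) was hybridised with input DNA (labelled with Cy3) from the same cells. According to the titles the cells were mouse ES cells, although the source names begin with Muscle. The arrays measure DNA and not expression, so that label could not be checked with marker genes, and no strain, genotype or line is given. The 2 arrays were different slides of 1 set that share no probe: slide 1 held 537 of the regions and slide 2 held 515. Every region was therefore measured once, without a replicate, a dye swap or a mock immunoprecipitation, and no test of significance was possible.

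The value of a region is the mean, over its probes, of log2(IP signal / input signal) minus the median probe of its slide. A value of 0 is the typical probe of the array, and 1 or more on this log2 scale is called high below, -1 or less low. The SD given with a mean is the spread over the probes of that region, which includes differences in probe quality. The precision is limited by the number of probes, which ranged from 3 to 56 per region with a median of 13.

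The probe sequences below show what a divergent region was measured with. For the 4 highest regions, the lowest region and 2 pairs known from the literature, the probe with the highest ratio (the lowest ratio for the lowest region) is printed as the array file gives it, with CpG dinucleotides in capitals.
Ccdc95-Hirip3, highest region: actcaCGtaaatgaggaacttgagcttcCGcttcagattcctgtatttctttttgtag
Six3os1-Six3: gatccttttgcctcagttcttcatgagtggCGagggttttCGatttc
Cyhr1-Kifc2: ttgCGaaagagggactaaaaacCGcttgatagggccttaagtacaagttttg
Trp73-Wdr8: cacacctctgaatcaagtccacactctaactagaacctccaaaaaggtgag
Bckdha-Exosc5, lowest region: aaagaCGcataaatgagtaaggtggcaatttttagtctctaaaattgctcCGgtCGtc
Col4a6-Col4a5: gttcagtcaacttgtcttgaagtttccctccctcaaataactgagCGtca
Brca1-Nbr1: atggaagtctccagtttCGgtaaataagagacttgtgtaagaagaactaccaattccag
The Six3os1-Six3 probe (chr17:83916417-83916463, build not given in the sources used here) had an IP signal of 41850 against an input signal of 2196, which gave a centred log2 ratio of 4.09. Its letters lie, on the opposite strand, 16.5 bases downstream of the Six3os1 start in the RefSeq promoter window printed below. The Bckdha-Exosc5 probe (chr7:22432567-22432624) showed the opposite, with an IP signal of 108.3 against an input signal of 2179 and a ratio of -4.56. Its centre lay 129 bases upstream of the Bckdha start. The highest probes of Ccdc95-Hirip3, Cyhr1-Kifc2 and Trp73-Wdr8 reached 2.74, 2.91 and 3.66, at input signals of 102.0, 117.4 and 768.9. Those of the literature pairs Col4a6-Col4a5 and Brca1-Nbr1 reached 1.70 and 1.75, at input signals of 206.1 and 56.59. A ratio over a dim input is less certain, and the input of the Brca1-Nbr1 probe was the dimmest of those printed.

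Six3, a homeobox transcription factor of the forebrain and eye, and Six3os1, a noncoding RNA read in the other direction, are the clearest case among the long regions, so both starts are shown. The windows are RefSeq promoters of build GRCm38.p6 (250 bases before the start to 50 after it), read along the gene's strand, with CpG dinucleotides in capitals.
Six3os1, chr17:85618347-85618646, minus strand: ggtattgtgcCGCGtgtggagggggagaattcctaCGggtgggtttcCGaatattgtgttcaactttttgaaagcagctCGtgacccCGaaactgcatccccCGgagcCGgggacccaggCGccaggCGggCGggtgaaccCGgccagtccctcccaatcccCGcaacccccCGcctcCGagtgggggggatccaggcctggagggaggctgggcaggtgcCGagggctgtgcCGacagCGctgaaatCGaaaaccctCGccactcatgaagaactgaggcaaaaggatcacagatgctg
Six3, chr17:85620584-85620883, plus strand: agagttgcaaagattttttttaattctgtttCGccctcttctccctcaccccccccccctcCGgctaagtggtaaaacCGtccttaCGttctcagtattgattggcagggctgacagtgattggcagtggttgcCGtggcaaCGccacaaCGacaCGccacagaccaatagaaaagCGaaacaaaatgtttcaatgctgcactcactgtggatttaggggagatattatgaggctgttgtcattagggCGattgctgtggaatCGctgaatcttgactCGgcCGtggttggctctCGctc
The Six3os1 window holds 20 CpG dinucleotides at 63.0% GC and the Six3 window 14 at 50.0% GC, and 1937 bases separate the windows. All 13 probes between the genes were above 0. In genome order they stood at 4.09, 3.27, 1.88, 2.04, 3.43, 1.05, 1.95, 3.07, 3.36, 0.25, 1.52, 1.07 and 2.87. Only 1 of them was below 1, and the mean was 2.30 ± 1.15 (SD, n = 13 probes).

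The typical divergent promoter had nearly the same value as the typical single promoter. The median of the 1052 regions was -0.11 (95% order-statistic interval -0.15 to -0.07), against -0.09 for the 13786 single promoters. At matched GC content (classes of 5 percentage points within a slide, single promoters weighted to the divergent regions, 12 regions without a counterpart left out) the medians differed by -0.02. Single divergent regions varied with an SD of 0.63, between -2.50 and 2.33.

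High values were somewhat more frequent among divergent promoters, and so were low ones. High were 49 of 1052 divergent regions, or 4.66% (exact 95% binomial interval 3.47 to 6.11%), against 316 of 13786 single promoters (2.29%), and the share over all 14838 promoter regions was 2.46%. Low were 63 divergent regions, or 5.99% (4.63 to 7.60%), against 521 single promoters (3.78%), with 3.94% over all promoter regions. At similar GC the share of high regions was 4.62% for divergent and 3.14% for single promoters, a difference of 1.48 percentage points. The share of low regions was 6.06% and 4.38% in that comparison. These intervals cover counting error only, and regions are not replicates of a condition.

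The excess of high regions lay mainly in regions with few probes, as the plot of shares by probe number shows. Divergent regions had a median of 13 probes and single promoters 17, and the size of a region's mean varied with the probe number (Spearman's rho -0.26 between the absolute mean and the number of probes over 1052 regions that share 2 arrays). Among regions with 10 or more probes, 16 of 687 divergent regions (2.33%) and 214 of 11565 single promoters (1.85%) were high. At similar GC these shares were 2.33% and 2.13%, a difference of 0.20 percentage points. Among regions with 3 to 9 probes they were 9.07% and 5.76% at similar GC. The shares of low regions at similar GC were 3.79% and 2.98% with 10 or more probes, and 10.5% and 9.68% with 3 to 9 probes, so the excess of low regions was about the same in both classes. With the comparison limited to probes within 1000 bp of a start, the direction turned. Divergent regions kept a median of 7 probes there and single promoters 5. Without matching on GC, 8.87% of 778 divergent regions and 12.6% of 11580 single promoters were high. Low were 6.43% and 10.8%, so single promoters had the larger share of both.

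**Figure D1:**
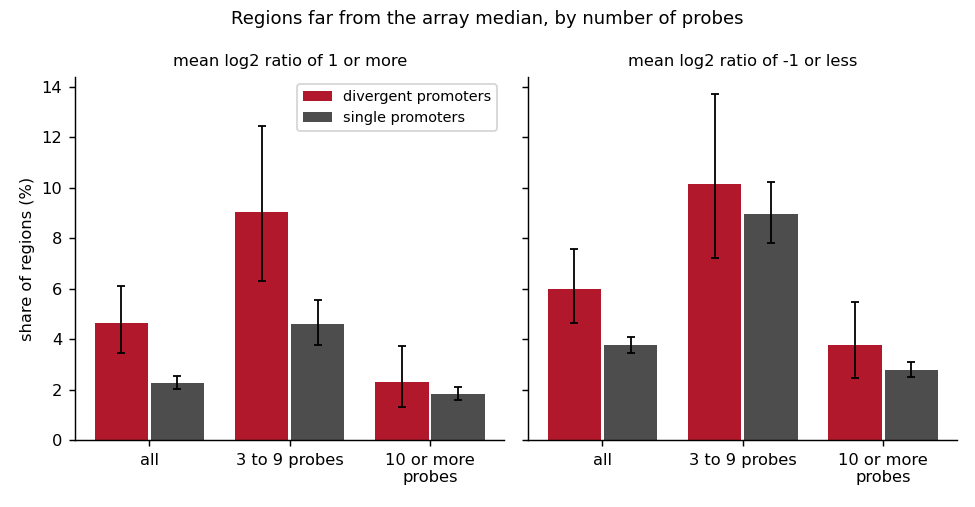
Share of regions (%, linear axis from 0) with a mean log2 ratio of 1 or more (left panel) and of -1 or less (right panel) for divergent and single promoters, over all regions and by number of probes; error bars are exact 95% binomial intervals. With 10 or more probes, 2.33% of divergent and 1.85% of single promoters were high and the intervals overlap.

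The balance of high to low calls changed with the processing. With the deposited log2 ratios of mean signals in place of the processed signals, 59 divergent regions were high and 21 low (73.8% high among both), compared with 49 high and 63 low (43.8%) as reported. Single promoters moved in the same way, to 355 high and 130 low. With normexp background correction 63 were high and 21 low, and without centring 75 were high and 36 low. The cause of these shifts was not tested, and a low value given below may not be low under another processing.

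Distance between the starts went together with probe number and with the share of high regions. The median distance was 6267 bp over the 1052 regions and 250 bp over the pairs with fewer than 3 probes, so the most compact bidirectional promoters are largely left out by the probe minimum. Of 125 regions with less than 1000 bp between the starts, all with 3 to 9 probes, 20 were high (16.0%) and 14 low (11.2%). Of 172 regions with 10000 bp or more, 1 was high (0.58%) and 15 were low (8.72%). The 1 high region in that class was Hoxa2-5730596B20Rik.

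**Figure D2:**
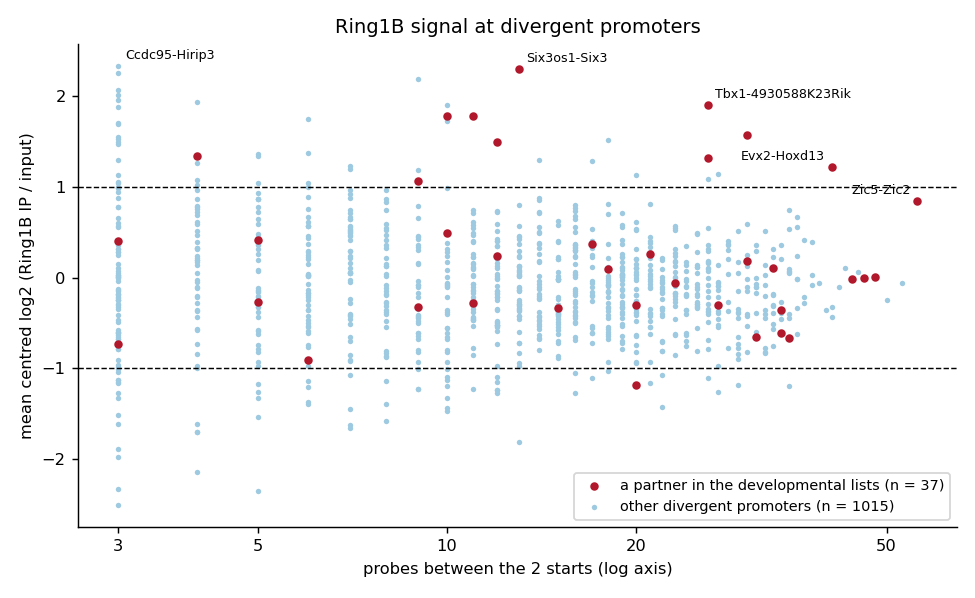
Mean centred log2 ratio (y axis) against the number of probes between the starts (x axis, log) for 1052 divergent promoters; each point is a region, red points have a partner in the lists of developmental transcription factors or signalling genes, and dashed lines mark 1 and -1. The spread narrows with the number of probes, and 8 of the 16 high regions with 10 or more probes are red.

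Pairs that include a developmental regulator made up a large part of the well-covered high regions. Of 37 regions with a partner in the lists of developmental transcription factors or signalling genes, 10 were high (27.0%, interval 13.8 to 44.1%) and 1 was low, against 39 high and 62 low of the other 1015 regions (3.84% high). With 10 or more probes, 8 of 29 listed regions were high (27.6%) and 8 of 658 others (1.22%). The lists were chosen with earlier results of these data known, so the split depends on how they were drawn. The high others include pairs with the zinc finger repressor genes Bcl11a and Hic1 and the homeobox gene Prrxl1. The medians were closer, 0.11 for the 37 listed regions and -0.11 for the other 1015, so most listed regions were not high. CpG density was higher in the listed regions, with a median of 1.64 per 100 probe bases against 1.33, and so was the input signal, with a median of 790.1 against 354.4. Among regions with 10 or more probes and at least 1 CpG per 100 bases, 8 of 21 listed regions and 7 of 396 others were high. In that class the listed regions still had the higher median CpG density (1.746 against 1.525) and input signal (604.5 against 369.2). They also had more probes, with a median of 26 against 18. The part of these differences in the counts was not tested.

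Transcription factors carried this count. Of 28 regions with a listed transcription factor 9 were high and none low, and of 10 with a listed signalling gene 1 was high (Fzd3-Fbxo16, 1.06, named for a Wnt receptor) and 1 low (Sec1-Gm484, -1.18 and -0.73 with the deposited table, where Gm484 is the netrin gene Ntn5). Where the partner of the transcription factor was a noncoding gene, 5 of 7 regions were high, with a median of 1.49. Where it was a protein-coding gene, 2 of 19 were high, with a median of -0.01. Over all pairs of a protein-coding and a noncoding gene, 8 of 32 were high (25.0%), against 36 of 947 pairs of protein-coding genes (3.80%). The 25 of them without a listed transcription factor included 3 high regions and had a median of -0.18.

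The 5 high pairs of a listed factor and a noncoding gene were long regions. Six3os1-Six3 stood at 2.30. Tbx1-4930588K23Rik (chr16:18136979-18141727), named for a T-box factor of the pharyngeal arches, stood at 1.90 ± 0.92 (SD, n = 26 probes), and all 26 probes were above 0, between 0.15 and 3.59. Hoxa2-5730596B20Rik (chr6:52130805-52138070), at the 3′ end of the HoxA cluster, stood at 1.57 ± 1.18 (SD, n = 30 probes), with 28 of 30 probes above 0. Pou3f3, a POU factor of neural progenitors, gave 1.49 ± 0.91 (SD, n = 12 probes) with its noncoding partner 2610017I09Rik (present symbol Pantr1). Nr2f2, a nuclear receptor of mesenchyme and veins, gave 1.32 ± 1.10 (SD, n = 26 probes) with B130024G19Rik. The other coding-noncoding pairs of listed factors, 6720416L17Rik-Hoxd1 and E130018O15Rik-Hmx1, stood at 0.50 and 0.40.

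The other 4 high regions with a listed transcription factor had no partner annotated as noncoding. Zic1-Zic4 (chr9:90994728-90997646), zinc finger genes of the dorsal neural tube and cerebellum, stood at 1.78 ± 1.01 (SD, n = 11 probes), and its 11 probes lay between 0.33 and 3.40. Evx2-Hoxd13, at the 5′ end of the HoxD cluster, stood at 1.21 ± 1.06 (SD, n = 41 probes). Zic5-Zic2, a further Zic pair with the most probes of any region (56), stood at 0.84 ± 1.17 and was not high. LOC544810-Hoxb3 stood at 1.78 ± 1.41 (SD, n = 10 probes), with 8 of 10 probes above 0, and its partner has no match in the reference. Lmx1b-C130021I20, named for a LIM homeobox factor of limb and midbrain, stood at 1.34 on 4 probes, also with an unmatched partner.

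The high regions with 10 or more probes outside the lists numbered 8. A830031A19Rik-Bcl11a stood at 1.52 ± 0.95 (SD, n = 18 probes), where Bcl11a encodes a zinc finger repressor. 9430077A04Rik-Prrxl1 stood at 1.73 ± 0.90 (SD, n = 10 probes), where Prrxl1 is a homeobox gene of sensory neurons. The region Hic1-mmu-mir-212, which joins a zinc finger repressor gene and a microRNA gene, stood at 1.13 ± 0.98 (SD, n = 20 probes). Others were Nek8-Tlcd1 at 1.91, Josd1-Gtpbp1 at 1.30, Gm867-Vpreb3 at 1.28 and Irak3-Tmbim4 at 1.14. None of these others had a high flanking gene, and the highest flanking value was 0.91 inside Gtpbp1. Some of their high probes had a dim input. The highest probe of Josd1-Gtpbp1 (4.03) had an input signal of 60.97, and that of Nek8-Tlcd1 (3.26) 72.08. All regions named here as outside the lists were singled out after their values had been seen.

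The counts of high and low regions in the housekeeping lists are read beside the shares over all 1052 divergent regions, 4.66% high and 5.99% low, and every interval for high regions in these lists includes 4.66%. None of 40 regions with a mitochondrial gene was high, with a median of -0.08, an exact upper 95% limit of 8.81% for the share of high regions and 1 low region (Ndufb11-Rbm10, -1.46 ± 2.01, SD, n = 10 probes). None of 21 regions with a cytoplasmic ribosomal protein gene was high or low (upper limit 16.1%), with a median of -0.24 and extremes of 0.86 at Iqcg-Rpl35a and -0.80 at Supt5h-Rps16. None of 34 regions with an RNA polymerase or processing gene was high (upper limit 10.3%), and 6 were low (17.6%, interval 6.76 to 34.5%). Among the low ones were Bckdha-Exosc5 (-2.50), Ddx48-Card14 (-1.62), Skiv2l2-Dhx29 (-1.33) and Gtf3c4-Ddx31 (-1.27), each on 3 or 4 probes. This list had a median of 7 probes per region, and 10.1% of all divergent regions with 3 to 9 probes were low. With the deposited table Skiv2l2-Dhx29 stood at -0.89 and Gtf3c4-Ddx31 at -0.72, above the threshold for low. Of 21 regions with a DNA repair or replication gene 1 was high (Dclre1a-Nhlrc2, 1.00) and 3 were low, including Pole3-4933430I17Rik at -1.89 and Meig1-Dclre1c at -1.54. Among 24 proteasome and chaperone regions 1 was high (Psmb9-Tap1) and 1 low (Dirc2-Hspbap1, -1.70). The 26 pairs of 2 olfactory receptors held no high region (upper limit 13.2%) and 2 low ones, and a median of 50.0% of their probes had surrogate values for dim spots in both channels.

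Of 9 regions with a histone gene 3 were high (33.3%, interval 7.49 to 70.1%): Hist1h2bh-Hist1h3f at 1.96 ± 0.37 (SD, n = 3 probes), Hist1h2ba-Hist1h2aa at 1.70 ± 0.52 (SD, n = 3 probes) and Hist1h3a-Hist1h1a at 1.37 ± 1.17 (SD, n = 6 probes). For comparison, 4.66% of all 1052 divergent regions were high, and 9.04% of the 365 with 3 to 9 probes. None of the 9 histone regions was low and their median was 0.32. The 3 rest on few probes, and Hist1h2bh-Hist1h3f stood at 1.49 with the deposited table and at 1.23 after loess. Histone genes of 1 kind are near-identical copies, so a probe may bind DNA of several of them. The interval nevertheless counts the regions as independent. Hist1h2bh (present symbol H2bc9) illustrates their promoters, with CCAAT in either orientation in capitals and no TATAAA in the window.
H2bc9, chr13:23543395-23543694, minus strand, RefSeq GRCm38.p6: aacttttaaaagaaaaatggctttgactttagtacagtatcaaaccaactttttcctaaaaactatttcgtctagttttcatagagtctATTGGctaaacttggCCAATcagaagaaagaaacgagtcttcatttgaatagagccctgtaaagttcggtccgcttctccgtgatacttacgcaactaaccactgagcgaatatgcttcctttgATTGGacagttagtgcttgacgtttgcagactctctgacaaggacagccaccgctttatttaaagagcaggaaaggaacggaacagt

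The lists of Polycomb, collagen and pluripotency genes were nearly empty. The 3 regions with a Polycomb gene were Mfsd7-Pcgf3 at -0.31, Pcgf2-Psmb3 at -0.27 and Tlx2-Pcgf1 at 0.18, and the last of these is also a pair of a listed homeobox factor. The collagen pairs Col5a3-Rdh8 and Col4a6-Col4a5 stood at -0.61 and 0.47. Tdgf1-Lrrc2, the only region with a listed pluripotency gene, stood at 0.81 ± 1.06 (SD, n = 18 probes).

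A high flanking gene was more frequent beside the long high regions than beside the short ones. Both flanking genes had at least 3 inside probes at 930 regions. Over all 930, both genes were high at 8, 1 gene at 46 and neither at 876, and both genes were low at 5. For 42 high regions among them, both genes were also high at 4, 1 gene was high at 5 and neither at 33. The 13 of them with 10 or more probes had both genes high at 3, 1 gene at 4 and neither at 6, so at least 1 gene was high at 53.8%. The 29 with 3 to 9 probes had at least 1 high gene at 2, Lmx1b-C130021I20 and Marcks-5930403N24Rik, a share close to that over all 930 regions. In those 29 the median was 1.34 between the starts, 0.08 inside the higher gene and -0.47 inside the lower one. These values cover all inside probes of a gene. Over all high regions, short and long, the mean in the first 500 bp was 0.54 inside the first gene and 0.78 inside the second. In regions between -1 and 1 it was -0.046 and -0.069. Of the 21 low regions with 10 or more probes and both genes measured, none had a high gene and none had both genes low. Both outcomes are rare over all 930 regions, so these counts do not set the low regions apart.

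**Figure D3:**
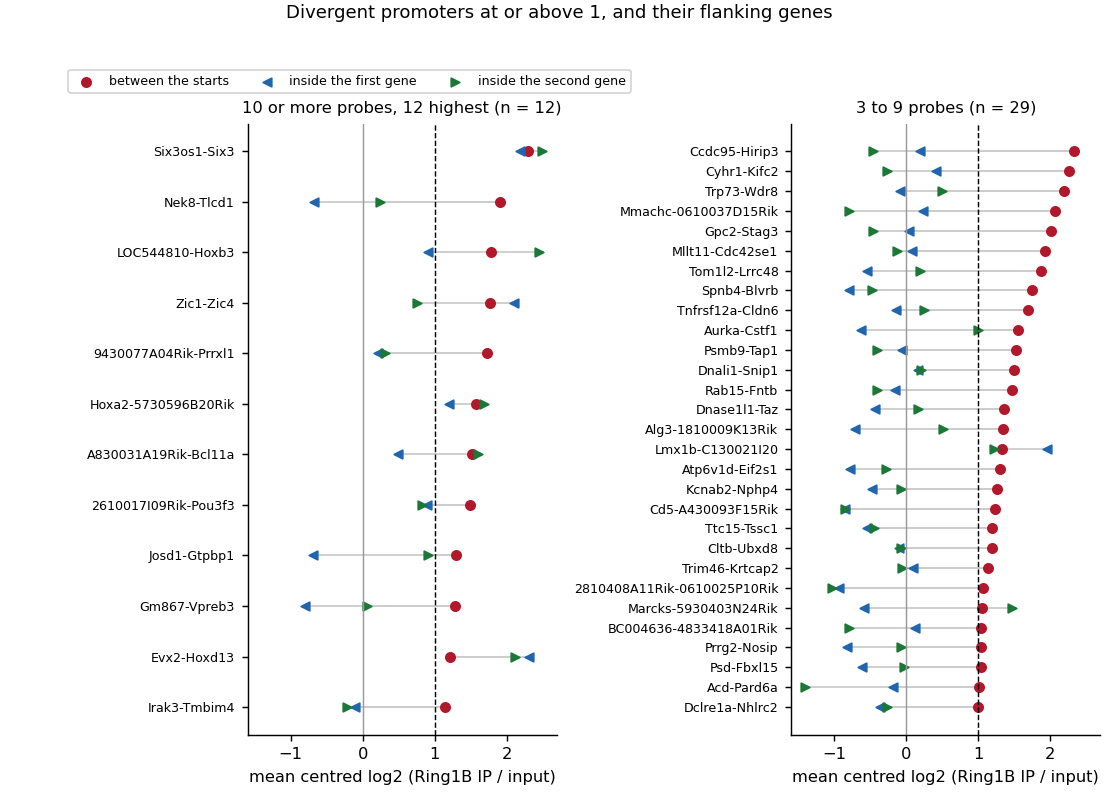
Mean centred log2 ratio between the starts (red circles), inside the gene named first (blue) and inside the gene named second (green) for high divergent promoters with both genes measured, split by number of probes (left panel, the 12 highest of 13; right panel, all 29); the dashed line marks 1. At Six3os1-Six3 all values lie above 2, whereas in the right panel only Lmx1b-C130021I20 and Marcks-5930403N24Rik have a gene above 1.

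At Six3os1-Six3 the mean was 2.30 between the starts, 2.19 ± 1.25 inside Six3os1 (SD, n = 19 probes) and 2.49 ± 0.80 inside Six3 (SD, n = 12 probes). Hoxa2-5730596B20Rik gave 1.57 between the starts, 1.20 inside Hoxa2 and 1.69 inside the noncoding gene. Evx2-Hoxd13 gave 1.21 between the starts, 2.31 inside Evx2 and 2.11 inside Hoxd13, so both genes stood above the space between them. At Zic1-Zic4 the values were 1.78 between the starts, 2.10 inside Zic1 and 0.75 inside Zic4. Ccdc95-Hirip3, the highest region of all at 2.33 ± 0.57 (SD, n = 3 probes, chr7:122958021-122958456), had 0.19 inside Ccdc95 (present symbol Ino80e) and -0.46 inside Hirip3. Its 3 probes stood at 1.68, 2.74 and 2.57. The nearest probes inside the genes stood at 1.29 (Ccdc95) and 0.87 (Hirip3), so the signal did not stop sharply at the starts. Of the other regions of 3 or 4 probes among the 12 highest, Cyhr1-Kifc2 (2.26), Mmachc-0610037D15Rik (2.07), Gpc2-Stag3 (2.01), Mllt11-Cdc42se1 (1.94) and Tom1l2-Lrrc48 (1.88) had no flanking gene above 0.42. The remaining one, Hist1h2bh-Hist1h3f (1.96), had a mean of 1.29 inside Hist1h3f on 3 probes. Trp73-Wdr8, named for a p53 family member, stood at 2.19 on 9 probes with -0.09 inside Trp73 and 0.50 inside Wdr8.

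**Figure D4:**
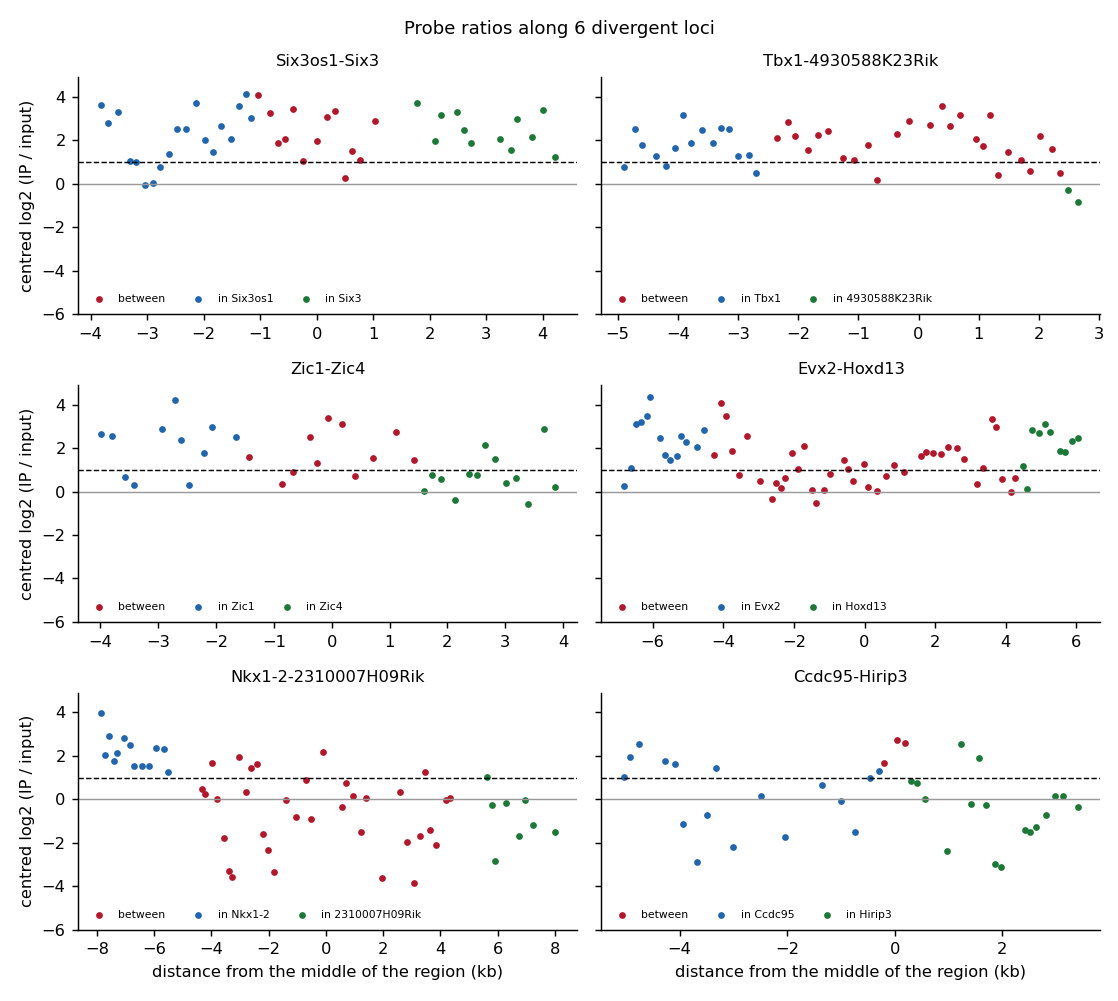
Centred log2 ratio of each probe (y axis) against distance from the middle of the region in kb (x axis) at 6 divergent loci, coloured by position between the starts or inside either gene; the dashed line marks 1. Most probes lie above 1 along all of Six3os1-Six3 and inside both genes at Evx2-Hoxd13, and all 13 probes inside Nkx1-2 do so. At Ccdc95-Hirip3 the 3 probes between the starts lie above 1. The nearest probes inside its genes stand at 1.29 and 0.87, and those further inside scatter widely around 0.

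Where only 1 partner was a listed developmental gene, the signal usually leaned to its side. In 26 such pairs with both sides measured, the median was 0.76 inside the developmental gene and 0.07 inside the other gene, and the developmental gene was higher in 19. Developmental genes were high in 10 and the other genes in 4. In 21 of these pairs the space between the starts was not high, and there the medians were 0.54 and -0.19, with 6 and 1 high. Examples with a low or middling space between the starts were Nkx1-2-2310007H09Rik (2.21 inside Nkx1-2, -0.83 inside 2310007H09Rik, -0.61 between), Sox18-Tcea2 (2.06, -0.44 and 0.00), Shox2-Rsrc1 (1.94, -0.17 and 0.26), Mthfsd-Foxc2 (1.64 inside Foxc2, -0.53 inside Mthfsd, 0.11 between) and Tlx2-Pcgf1 (2.23 inside Tlx2, 0.16 inside Pcgf1, 0.18 between). Wnt10b-Wnt1, a pair of listed signalling genes, had 2.07 and 2.42 inside the genes and 0.38 between them. At these loci a mean over the whole space between the starts stayed below 1 although a flanking gene was high.

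The 5 regions with the largest difference between their sides included Nkx1-2-2310007H09Rik and Lyzl6-Rprml. Rprml, a gene related to Reprimo, had 1.71 ± 0.59 (SD, n = 8 probes), against -1.12 ± 2.15 inside Lyzl6 (SD, n = 9 probes) and -0.90 between them. The largest difference, at Olfr807-Olfr808, came from a value of -3.29 on 4 probes inside Olfr807 against 0.76 on 5 inside Olfr808. Krtap14-Krtap15 (-2.33 and 0.73, 5 probes each) and Kirrel2-Nphs1 (0.64 and -2.04) were the others. In these 3 pairs the difference came from a low side, not from a high one.

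The longest runs of neighbouring probes were high rather than low. Runs were taken only with the processing as reported, and the balance of high to low regions changed with the processing. A run was defined over the space between the starts and both genes as at least 3 neighbouring probes at which the local mean, taken over a window reaching 500 bp to the left and right, stayed at 1 or more, or at -1 or less. Runs of 1000 bp or more were high at 92 loci and low at 157. Runs of 2000 bp or more were high at 29 and low at 15. Of the 29 loci, 15 had a listed developmental gene, against 37 of all 1052 regions. Runs of 4000 bp or more were high at 7 loci and low at none. The 4 high runs of 6000 bp or more lay at Lmx1b-C130021I20 (8097 bp), Six3os1-Six3 (7035 bp), Tbx1-4930588K23Rik (6797 bp) and LOC544810-Hoxb3 (6570 bp), all with a listed factor, and 3 of them reached into both genes.

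**Figure D5:**
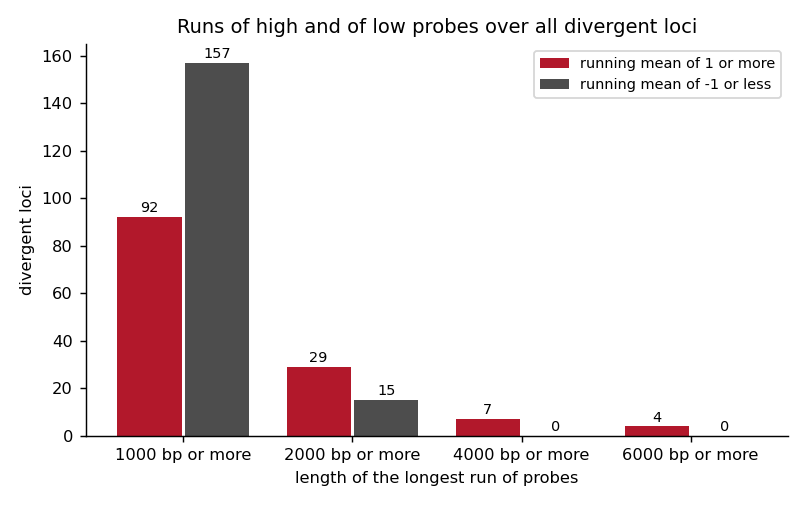
Number of divergent loci (y axis) whose longest run of probes reaches the length on the x axis, for runs with a running mean of 1 or more (red) and of -1 or less (grey). Runs of 1000 bp or more were high at 92 loci and low at 157, and runs of 4000 bp or more were high at 7 loci and low at 0.

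The left and right parts of a region agreed only weakly. In 687 regions with 10 or more probes, the mean of the left probes and that of the right probes correlated with Pearson's r 0.20 and Spearman's rho 0.13, as a description over regions of 2 arrays. The left part was high in 34 regions, and both parts were high in 11 of them. In these 34 the right part was above 0 in 25, with a median of 0.29. The left part was low in 59 regions, and both parts were low in 11 of them. In these 59 the right part was below 0 in 39, with a median of -0.34. The shares of high and low right parts over all 687 regions are not given here. The 16 high regions with 10 or more probes had a median probe SD of 1.03, against 1.24 over all 940 regions between -1 and 1, which include those with fewer than 10 probes.

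CpG density went with high values in divergent and single promoters alike. Among regions with 10 or more probes, 9 of 93 divergent regions (9.68%) with 2 or more CpG per 100 probe bases were high, against 8.31% of single promoters in that class. Below 0.5 CpG per 100 bases, 0 of 74 divergent regions were high, with an exact upper limit of 4.86%, against 0.05% of single promoters. Over the 1052 divergent regions the mean correlated with CpG density (Pearson's r 0.17), with GC content (0.04) and with the input signal (-0.30). The median input signal was 596.6 over the 16 high regions with 10 or more probes, 271.5 over the 33 high regions with 3 to 9 probes and 1221 over all 63 low regions, and the part of the input signal in these values was not tested.

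Promoter sequence differed between partners of compact pairs and genes with single promoters. RefSeq windows of 300 bases were found for 2353 of 2899 partners with a present symbol. Of 857 partners with less than 1000 bp between the starts (any number of probes), 30.3% had the ETS core CCGGAAG on either strand, against 11.1% of 10206 genes with single promoters and 9.12% of all 27025 windows. The GC box GGGCGG was present in 67.7%, against 50.8% and 35.9%, and TATAAA in 4.78%, against 13.0% and 14.2%. The median number of CpG dinucleotides per window was 24 for these compact partners and 15 for genes with single promoters. The ETS core was found in 11 of 79 partners of high regions (13.9%) and in 1 of 24 partners of those with 10 or more probes, against 16.9% of the 1631 partners of all 1052 regions, and this difference was not tested. A match of letters is a description and not a bound site.

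The literature pairs were mostly near the array median. Of 20 pairs chosen, 10 were divergent pairs of the array and 7 had at least 3 probes. Six3os1-Six3 (2.30) and Psmb9-Tap1 (1.53 ± 0.42, SD, n = 3 probes) were high. Col4a6-Col4a5 stood at 0.47, Brca1-Nbr1 at 0.31, Psmb1-Tbp at 0.21, Pcna-Cds2 at 0.05 and Mcm4-Prkdc at -0.19. Psmb9 and Tap1, which encode an immunoproteasome subunit and a peptide transporter of antigen presentation, share a compact promoter: their RefSeq windows overlap by 275 of 300 bases. The values inside Psmb9 (-0.06) and Tap1 (-0.41) were not high. The Psmb9 window is printed with GGGCGG and CCAAT in either orientation in capitals.
Psmb9, chr17:34187281-34187580, minus strand, RefSeq GRCm38.p6: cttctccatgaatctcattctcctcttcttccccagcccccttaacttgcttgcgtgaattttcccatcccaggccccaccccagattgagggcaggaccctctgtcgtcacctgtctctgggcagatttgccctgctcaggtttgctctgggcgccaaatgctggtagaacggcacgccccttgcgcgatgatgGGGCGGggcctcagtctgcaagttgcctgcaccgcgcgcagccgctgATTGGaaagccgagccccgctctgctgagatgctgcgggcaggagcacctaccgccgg

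The lowest regions were short or sparsely covered and did not extend into their genes. The 6 lowest were Bckdha-Exosc5 (-2.50 ± 2.61, SD, n = 3 probes), Anxa1-1500015L24Rik (-2.35, n = 5), 2410002O22Rik-Trim23 (-2.33, n = 3), Defb12-Defb34 (-2.14, n = 4), Nt5c3l-Klhl10 (-1.98, n = 3) and Pole3-4933430I17Rik (-1.89, n = 3). The 3 probes of Bckdha-Exosc5 stood at -3.39, -4.56 and 0.44. Inside the genes of these 6 regions the means lay between -0.50 and 0.40, none of them low.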

How the data were processed

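Ring1B ChIP-chip was measured on 2 Agilent promoter slides, 1 sample each. Per the file headers, scanning output came from Agilent Feature Extraction 9.1.3.1, and the deposited processed signals are intensities, background-subtracted and scaled by 1 linear dye factor per channel, with a surrogate value for very dim spots. The deposited log10 ratios of these files were not used. The deposited series table holds log2 ratios of the mean signals, as its values set against the scanner files show, and served as an alternative. The genome build of the probe coordinates is not given in the sources.

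Control spots and 141 and 17 spots with outlier flags were left out, which left 237054 probes on slide 1 and 237168 on slide 2. The log2 ratio of IP over input was centred on each slide's median (0.23 and 0.16), with no loess or quantile step. The input was well above background at 74.2% and 76.3% of probes, and precision is limited by having 1 array per probe. Probes were averaged per joined gene name (divergent) or per slide, chromosome and gene name (single), with at least 3 probes. A side is the mean of at least 3 inside probes of a gene. Distances between starts come from the file on slide 1 and otherwise from the flanking probes (median absolute difference 97 bp in 486 regions with both). Names were matched to RefSeq: 2134 of 2996 by symbol, 765 by synonym, and 97 matched several genes or none.

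The regions named were the 12 highest and the 6 lowest, regions among the 4 with the largest absolute mean of each list, the 5 largest differences between sides, and the literature pairs; others were chosen after their values were seen, and 1 of the high regions is counted but not reported here. Members and lists were chosen with earlier results of these data known. With 1 array per probe, counts, medians and exact Clopper-Pearson intervals are given and no test. Calculations used Python 3.11.15, pandas 2.3.3, numpy 2.4.6 and scipy 1.17.1, with R 4.3.3 and limma 3.58.1 for normexp (offset 50) and loess, and were tested on simulated data. The alternatives were other backgrounds, centrings, probe filters, probe minimums, GC classes and slides.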

Additional observations from a re-analysis of the deposited data

How the results depend on the processing

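No paired analysis was possible because both slides belong to 1 group and share no probe. Of 91 values over all divergent regions, 70 stayed close to those reported, 17 moved and 4 reversed. The cause of these shifts was not tested. The median of divergent regions, -0.11 as reported, was 0.090 without centring, 0.061 with the deposited table, 0.061 with normexp, -0.27 without probes dim in the input, -0.050 after correction for probe GC and -0.010 with the median of the probes. The share of high regions, 4.66%, was 7.13% without centring, 3.08% with at least 5 probes, 2.33% with at least 10, and 3.13% without regions under 1000 bp between starts (chosen after seeing the data). The share of low regions, 5.99%, was 3.42% without centring, 2.00% with the deposited table and with normexp, 11.9% without probes dim in the input, 8.51% without surrogates and 3.79% with at least 10 probes. High among high and low regions were 73.8% with the deposited table, 75.0% with normexp, 67.6% without centring and 28.4% without dim probes, against 43.8%. The excess of high regions over single promoters, 1.48 percentage points, was 0.20 where regions had 10 probes or more and -4.38 for probes less than 1000 bp from a start. The median difference, -0.02, was 0.025 with the median of the probes and 0.043 in classes of GC and input. The share of high regions in the developmental lists, 27.0%, ranged from 23.8% to 31.2%. The share of high regions with a high gene, 21.4%, was 53.8% with at least 10 probes (chosen after seeing the data). Of 471 values of 59 named regions, 463 stayed within 1 probe SD of the reported mean, which is wide for many regions, and 8 moved beyond it. A reversal was counted only for regions past a threshold, and none of those changed sign. Regions nearer to the array median did change sign, such as Mcm4-Prkdc (-0.19 as reported, 0.27 with the deposited table) and Pcgf2-Psmb3 (-0.27 and 0.12). The 8 values that moved belong to Hist1h2bh-Hist1h3f, Gtf3c4-Ddx31 and Dnajb4-Fubp1. In each alternative taken by itself, at least 27 of the 32 named regions past a threshold stayed past it. The number that stayed past it in every alternative was not counted.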

Other observations

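Probes at the starts themselves did not carry a higher typical signal than other probes. Of 16279 divergent probes, 2001 (12.3%) matched a RefSeq promoter window, with a median of -0.01 (SD 1.35), against 13804 of 239542 promoter probes (5.76%), with a median of 0.01 (SD 1.29). At 1 or more were 22.7% of the divergent probes in a window and 19.9% of the single-promoter probes in a window, and at -1 or less 19.3% and 17.3%.

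Some divergent loci outside the developmental lists had long high runs. 2810030E01Rik-Mllt10, with a mean of 0.74 between the starts and named for a chromatin reader fused in leukaemia, had a run of 4636 bp with 23 probes at a mean of 1.80. Tdgf1-Lrrc2, with a mean of 0.81 and named for the Nodal co-receptor Cripto, had a run of 3045 bp with 13 probes at a mean of 1.35. These loci were singled out after their values had been seen.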
